A study of Mus musculus with 12 samples.

Results

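Ribosome biogenesis and nucleolar genes were followed in a mouse myeloid progenitor line under activation of PU.1 and expression of stabilised β-catenin. The 48 genes were chosen by name: a row of the normalised array table counted when its gene name was a listed symbol or a synonym of one. All 48 were found among 27676 gene names, 35 under their current symbol and 13 under an older name, which is given where the gene is first described. The rule uses names only, but the list was chosen with earlier results of these data known. The cells were PUER cells, which carry the transcription factor PU.1 joined to an estrogen receptor hormone-binding domain, so that 4-hydroxytamoxifen (4-OHT) activates it. Control cells carried the retroviral vector MIGR1, which expresses GFP alone, and β-catenin cells carried the same vector with β-catenin-S33Y, a mutant that is not marked for breakdown. Cells positive for GFP were sorted 5 days from infection. RNA was taken before 4-OHT (0 h) or once 4-OHT had been present at 10 nM for 24 h, which gave 4 groups with 3 arrays each (A, B and C). All 4 groups carried the PU.1 fusion and a GFP vector, the vector and not the endogenous promoter drove β-catenin, and a single line was used.

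Ribosomes are assembled in the nucleolus. RNA polymerase I transcribes the large ribosomal RNA precursor there, small nucleolar ribonucleoproteins guide its chemical modification, and a long series of processing factors cuts, folds and exports the small and large subunits. Ribosome biogenesis genes are textbook targets of the transcription factor Myc, which binds the E-box CACGTG, as are the polyamine synthesis genes Odc1 and Srm and the pyrimidine synthesis gene Cad.

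Arrays had median scanned intensities of 133.5 to 208, with 47.2% to 51.3% of gene names brighter than a background bound. Across genes, which are not independent replicates, Pearson's r was 0.993 to 0.995 within groups and 0.979 to 0.991 between groups. Whether replicate arrays stand for separate cultures is not stated in the labels, and the p-values therefore measure only how far these samples spread, and that spread may be technical. Cells kept for 24 h without 4-OHT were not analysed here, so 4-OHT, PU.1 activity and time in culture cannot be told apart in the 4-OHT responses. Of 8 neutrophil markers on the arrays, 7 or 8 lay above the bound on each array, and 8 of 10 lymphoid markers lay below it on every array. The probes named Ctnnb1 (0.01 ± 0.09 on the log2 scale at 0 h and -0.10 ± 0.09 at 24 h, β-catenin minus control) and Spi1 (listed as Sfpi1), which encodes PU.1, do not check the vector or the fusion, because their positions in the transcripts are not given in the sources used here. Spi1 fell by 0.49 ± 0.11 over 24 h of 4-OHT in control cells (adjusted p = 0.00741). In β-catenin cells its change was -0.04 ± 0.11 (adjusted p = 0.852).

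All 48 genes gave signal above the background bound on all 12 arrays, against 44.1% of all gene names. The signal of 5 was at the scan ceiling on all 12 arrays: Ncl (nucleolin) and Npm1 (nucleophosmin), abundant nucleolar proteins, Fbl (fibrillarin) and Nop56 (listed as Nol5a), core proteins of box C/D particles, and Odc1, the ornithine decarboxylase of polyamine synthesis. Changes in these 5 could not be measured. Another 3 reached the ceiling on some arrays: Nhp2 (listed as Nola2) on 7, Ppan on 3 and Nop10 (listed as Nola3) on 1. The other 40 reached it on none. Changes below are differences of normalised log2 intensity ± SE from limma's fit, with n = 3 arrays per group, and a gene is called at an adjusted p below 0.05 over the 22461 genes tested. In bulk RNA, fewer cells of a type and less RNA per cell cannot be told apart.

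At 24 h of 4-OHT, most of the measurable genes were higher in β-catenin cells than in control cells. Of the 48 genes, 27 were called higher, where 8.68% of all genes were, and 1 was called lower, where 9.88% were. Over the 43 genes not saturated on every array, the median log2 difference was 0.45, against 0.03 over all genes tested, and 42 of 43 were above 0. In 31 of the 43, every β-catenin array lay above every control array (16% of all genes did), and in 1, Heatr1, every β-catenin array lay below (15.8% did). Calls fell in all 7 role groups described below. Calls held in every alternative processing for 17 of the 27 and for Heatr1.

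**Figure D1:**
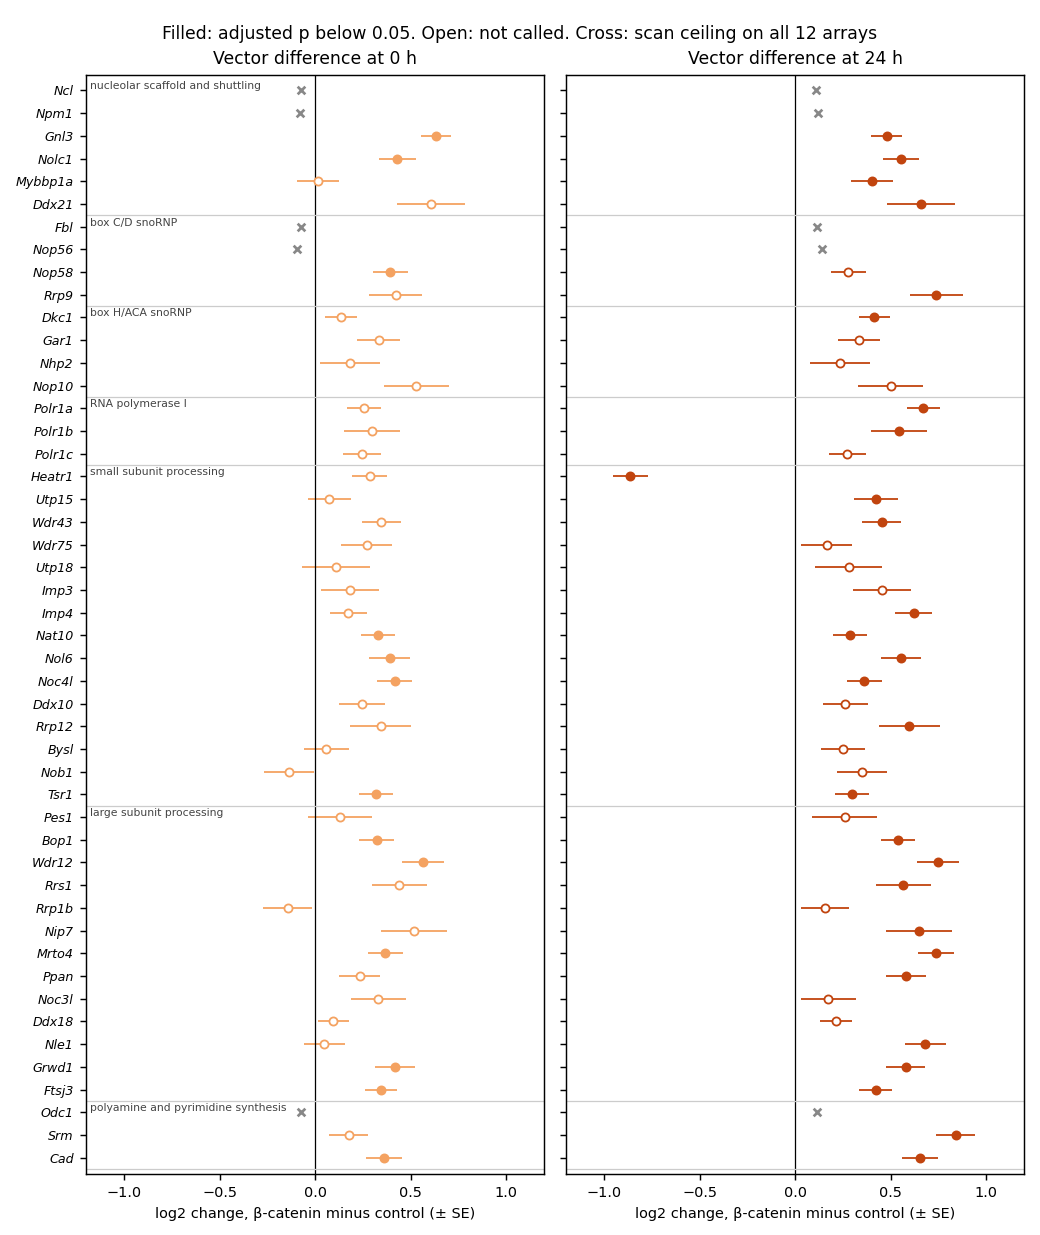
Log2 difference of normalised intensity between β-catenin and control cells, ± SE, for each of the 48 genes at 0 h (left) and 24 h of 4-OHT (right), grouped by role; filled points are called, open points are not, and crosses are the 5 genes at the scan ceiling on all 12 arrays. At 24 h 27 filled points lie to the right of 0 and Heatr1 alone lies to the left; at 0 h 13 are filled, all to the right.

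Among the genes called higher at 24 h, the largest difference was that of Srm, the spermidine synthase that uses the product of ornithine decarboxylase. Its log2 signal was 14.45, 14.61 and 14.57 on the control arrays and 15.29, 15.47 and 15.39 on the β-catenin arrays. The groups did not overlap, and the difference was 0.84 ± 0.10, or 1.79-fold (adjusted p = 0.000145). Cad, which starts pyrimidine synthesis, read 14.18, 14.30 and 14.32 in control cells and 14.94, 14.80 and 15.02 in β-catenin cells. All 3 β-catenin arrays lay above the controls, with a difference of 0.65 ± 0.09, or 1.57-fold (adjusted p = 0.000488).

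Large subunit factors held the most calls, 9 of 13. Wdr12 encodes a subunit of the PeBoW complex, which works with Pes1 and Bop1 on the precursor of the large subunit. Its signal was 13.11, 13.21 and 13.08 in control cells and 13.73, 14.10 and 13.80 in β-catenin cells at 24 h. The lowest β-catenin array was above the highest control array, and the difference was 0.75 ± 0.11, or 1.68-fold (adjusted p = 0.000621). Of its partners, Bop1 was higher by 0.54 ± 0.09 (adjusted p = 0.00143), and Pes1 read 0.26 ± 0.17 and was not called (adjusted p = 0.344). Mrto4 (listed as 2610012O22Rik), a nuclear relative of a ribosomal stalk protein that holds its place during assembly, read 13.67, 13.69 and 13.63 in control cells and 14.32, 14.59 and 14.30 in β-catenin cells. The groups were apart on all arrays, with a difference of 0.74 ± 0.09 (1.67-fold, adjusted p = 0.000187). The remaining called large subunit factors were Nle1, Nip7, Grwd1, Rrs1 and Ftsj3, with differences from 0.42 to 0.68. Ppan was called too, but 2 of its 3 β-catenin arrays at 24 h were at the scan ceiling, so the size of its difference was not measured. Noc3l, Ddx18 and Rrp1b (listed as 2600005C20Rik) read 0.17, 0.21 and 0.16 and were not called.

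Nle1, a Notchless-type factor needed for large subunit assembly, was flat in control cells. Its signal was 12.24, 11.84 and 11.89 at 0 h and 11.92, 11.89 and 11.96 at 24 h with the control vector. With β-catenin it was 12.15, 11.98 and 11.99 at 0 h and 12.55, 12.62 and 12.64 at 24 h. The 3 β-catenin arrays at 24 h lay above the other 9, and the vector difference at 24 h was 0.68 ± 0.11, or 1.60-fold (adjusted p = 0.00105).

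Small subunit factors split into 8 called higher and 1 called lower, of 15. The called ones included Imp4, a U3 particle component, with 8.53, 8.69 and 8.67 in control and 9.39, 9.13 and 9.22 in β-catenin cells. All 3 β-catenin arrays were higher, by 0.62 ± 0.10 on average (1.54-fold, adjusted p = 0.000847). Rrp12 (listed as AA408556), an export factor of the pre-ribosome, was higher by 0.60 ± 0.16 (adjusted p = 0.023), and Nol6 by 0.56 ± 0.11 (adjusted p = 0.0034). The others were Wdr43, Utp15, Noc4l, Tsr1 and Nat10, an RNA acetyltransferase of the small subunit RNA, from 0.29 to 0.45. Imp3, a partner of Imp4, read 0.45 ± 0.15 and missed the threshold (adjusted p = 0.0587), as did Nob1, the nuclease of the last small subunit cut, at 0.35 ± 0.13 (adjusted p = 0.0905). Utp18, Ddx10, Bysl and Wdr75 lay between 0.16 and 0.28 without a call.

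Among genes of the box C/D and box H/ACA particles, Rrp9 (listed as Rnu3ip2) encodes a protein of the U3 box C/D particle. It read 11.72, 11.99 and 11.83 in control and 12.40, 12.81 and 12.55 in β-catenin cells. The groups did not overlap and differed by 0.74 ± 0.14, or 1.67-fold (adjusted p = 0.00296). Nop58 (listed as Nol5), a core box C/D protein, was not called at 24 h (0.28 ± 0.09, adjusted p = 0.0546), and the other core members Fbl and Nop56 were saturated. Of the 4 box H/ACA proteins, which carry pseudouridylation, Dkc1 (listed as BC068171), the enzyme dyskerin, was higher by 0.41 ± 0.08 (adjusted p = 0.00445). Gar1 (listed as Nola1), Nop10 and Nhp2 read 0.33, 0.50 and 0.23 without a call, the last 2 with arrays at the ceiling.

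RNA polymerase I had 3 subunits among the chosen genes, and 2 of them were called higher at 24 h. Of 15 other subunits and factors of this polymerase tested outside the list, 3 were called higher, 1 lower and 11 not called. Polr1a (listed as Rpo1-4), its largest subunit, read 13.91, 13.91 and 13.77 in control and 14.49, 14.49 and 14.63 in β-catenin cells. All β-catenin arrays lay above all control arrays, with a difference of 0.67 ± 0.09, or 1.59-fold (adjusted p = 0.000242). Polr1b (listed as Rpo1-2), the second-largest subunit, was higher by 0.54 ± 0.15 (adjusted p = 0.0242), and Polr1c (listed as Rpo1-1), which RNA polymerase III shares, read 0.27 ± 0.10 (adjusted p = 0.0753). Of the nucleolar scaffold and shuttling proteins, the 4 that could be measured were all called higher. They were Gnl3 (nucleostemin, 0.48 ± 0.08), Nolc1 (a chaperone of small nucleolar particles, 0.55 ± 0.10), Mybbp1a (0.40 ± 0.11) and the helicase Ddx21 (0.66 ± 0.18).

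**Figure D2:**
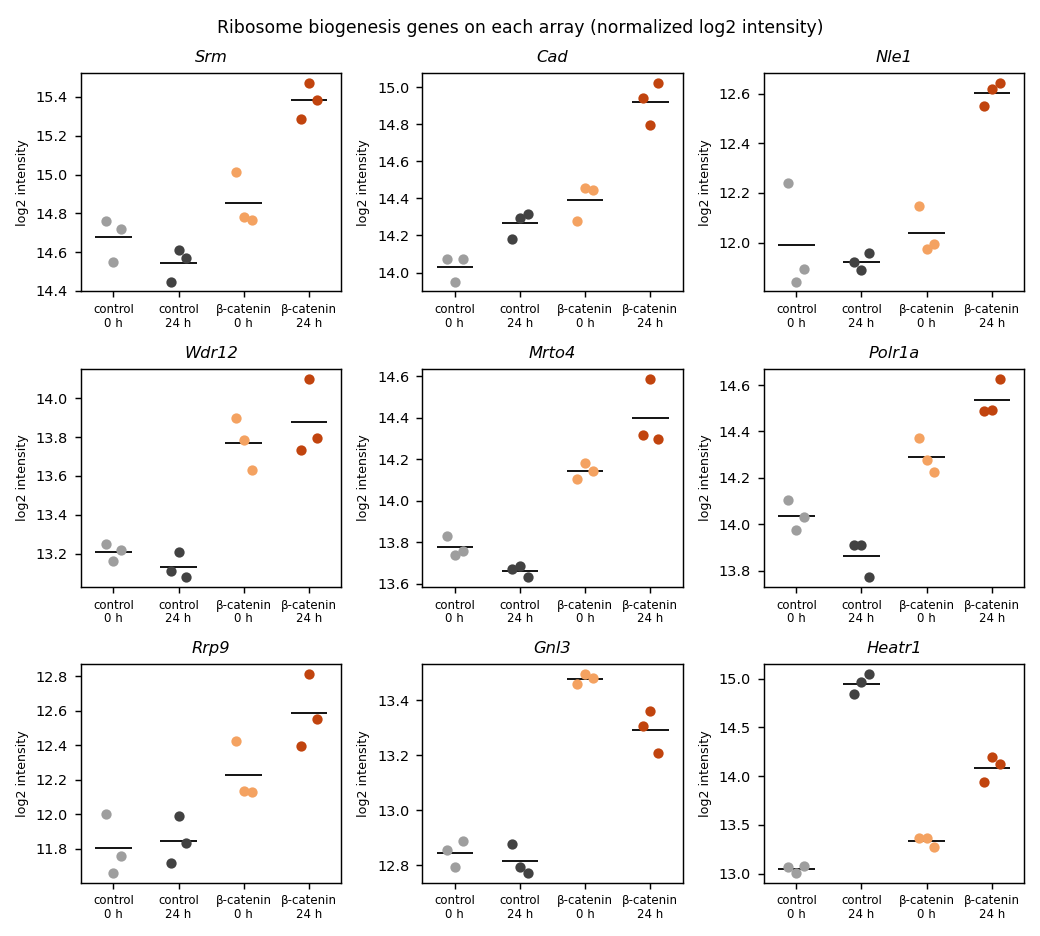
Normalised log2 intensity on each of the 12 arrays for 9 of the genes, 3 arrays per group, with a line at each group mean and a separate vertical scale for each gene that does not start at 0. Srm, Cad, Nle1, Mrto4, Polr1a and Rrp9 have their highest mean in β-catenin cells at 24 h, Gnl3 has it in β-catenin cells at 0 h, and Heatr1 has it in control cells at 24 h.

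Before 4-OHT, at 0 h, fewer genes passed the test, all in the same direction. Of the 48 genes, 13 were called higher in β-catenin cells (4.38% of all genes were) and 0 lower (6.62% were), all tests by limma. An unadjusted p under 0.05 was found for 24 of the 48, beside 5445 of the 22461 genes tested. The median log2 difference of the 43 measurable genes was 0.32, against 0.01 over all genes, and 41 of 43 were above 0. In 31 of 43 every β-catenin array lay above every control array, where 17.3% of all genes did, and in 0 every one lay below, where 16% did. The calls fell on 5 large subunit factors, 4 small subunit factors, 2 scaffold proteins, 1 box C/D protein and Cad.

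Gnl3, a nucleolar GTPase abundant in proliferating progenitors, had the largest difference of the called genes at 0 h. Its signal was 12.86, 12.79 and 12.89 in control cells and 13.46, 13.50 and 13.48 in β-catenin cells. The gap between the groups was wider than the range within either, and the difference was 0.63 ± 0.08, or 1.55-fold (adjusted p = 0.000271). Wdr12 read 13.25, 13.16 and 13.22 against 13.90, 13.79 and 13.63, a difference of 0.56 ± 0.11 (1.48-fold, adjusted p = 0.006). Calls for Gnl3 and Wdr12 were the only 2 of the 13 that held in every alternative.

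The next 4 called genes by size at 0 h were apart on all arrays as well. Larger differences that were not called were those of Ddx21 (0.61 ± 0.18, adjusted p = 0.0504), Nop10 (0.53 ± 0.17, adjusted p = 0.0735) and Nip7 (0.51 ± 0.17, adjusted p = 0.0834), and Rrs1 read 0.44 ± 0.14 (adjusted p = 0.0765). Nolc1 read 14.50, 14.52 and 14.57 in control and 14.88, 14.98 and 15.02 in β-catenin cells (0.43 ± 0.10, adjusted p = 0.0128). Noc4l, a small subunit factor, read 12.61, 12.49 and 12.60 against 12.99, 12.98 and 12.99 (0.42 ± 0.09, adjusted p = 0.0125). Grwd1, a histone-binding protein found with large subunit precursors, read 12.24, 12.29 and 12.45 against 12.66, 12.69 and 12.87 (0.42 ± 0.10, adjusted p = 0.0239). Nop58 read 14.98, 14.99 and 14.99 against 15.41, 15.31 and 15.42 (0.39 ± 0.09, adjusted p = 0.0169). Each of the calls for Nolc1, Noc4l, Grwd1 and Nop58 was lost when some single array was left out. The number of genes called at 0 h fell to 7, 3 or 6 without control 0 h array A, B or C and to 8 (A), 5 (B) or 3 (C) when a β-catenin array at 0 h was left out.

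The vector differences at 0 h and at 24 h share no arrays, but their tests use the same fitted spread for each gene, so the calls are not independent. Of the 13 genes called higher at 0 h, 12 were also called higher at 24 h (92.3% of the 0 h calls and 44.4% of the 24 h calls); over all genes tested, 477 were called higher at both times (48.5% of the 983 at 0 h and 24.5% of the 1950 at 24 h). Nop58 was the exception. Across the 43 genes the 2 differences correlated with r = 0.28, and 40 of 43 were above 0 at both times; over all 22461 genes r was 0.40 and 7115 were above 0 at both times. The mean log2 signal of the 43 genes lay between 12.90 and 12.99 on the control arrays at 0 h and between 12.89 and 13.05 on those at 24 h. It lay between 13.16 and 13.24 in β-catenin cells at 0 h and between 13.34 and 13.42 at 24 h. The control groups overlapped each other, and each β-catenin group lay above both.

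**Figure D3:**
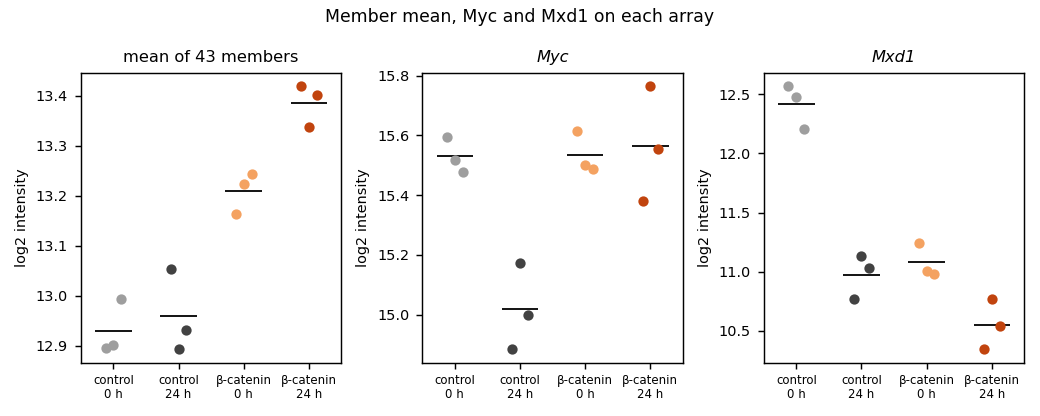
Mean normalised log2 intensity of the 43 genes not saturated on every array (left), of Myc (middle) and of Mxd1 (right) on each of the 12 arrays, 3 per group, with a line at each group mean; the vertical scales differ and do not start at 0. The mean of the 43 genes lies between 13.16 and 13.42 on the 6 β-catenin arrays and between 12.89 and 13.05 on the 6 control arrays, while Myc is lowest on the 3 control arrays at 24 h.

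In control cells, 4-OHT left most of these genes without a call. Over 24 h of 4-OHT, 1 of the 48 genes rose (11.9% of all genes did) and 2 fell (10.8% did), and the median log2 change of the 43 measurable genes was -0.02. In 8 of the 43 every array at 24 h was above every array at 0 h (18.5% of all genes) and in 5 every one was below (17%). Imp4 was 9.02, 8.83 and 8.90 at 0 h and 8.53, 8.69 and 8.67 at 24 h, and fell by 0.29 ± 0.10 (adjusted p = 0.0477). Dkc1 was 11.39, 11.41 and 11.38 at 0 h and 11.08, 11.25 and 11.10 at 24 h, and fell by 0.25 ± 0.08 (adjusted p = 0.0449). The groups were apart for both genes, but the Imp4 call held in 10 of 24 alternatives and the Dkc1 call in 11, and both were lost when any control 0 h array was left out.

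In β-catenin cells, 8 of the 48 genes rose over the same 24 h (8.02% of all genes did) and 0 fell (6.32% did). By limma, 16 of the 48 had an unadjusted p under 0.05, beside 6008 of the 22461 genes tested. The median of the 43 genes was 0.15, against 0.02 over all genes, and 35 of 43 were above 0. The 432 genes at the scan ceiling on all arrays, whose true change is not seen, had a median of 0.10 here and -0.09 in the control response. Every array at 24 h was above every array at 0 h in 18 of 43 (17% of all genes) and below in 1 (15.7%). Srm went from 15.01, 14.78 and 14.76 to 15.29, 15.47 and 15.39, a rise of 0.53 ± 0.10 (adjusted p = 0.00402), and Nle1 rose by 0.56 ± 0.11 (adjusted p = 0.00406). Cad went from 14.28, 14.45 and 14.45 to 14.94, 14.80 and 15.02, a rise of 0.53 ± 0.09 (adjusted p = 0.00242). None of these 3 genes had overlapping groups, and their calls, with that of Heatr1, held in every alternative.

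Rrp12, Mybbp1a, Bysl and Nol6 also rose with 4-OHT in β-catenin cells, but lost the call when particular arrays were left out. Rrp12 read 10.36, 10.48 and 10.55 at 0 h and 11.31, 10.79 and 11.31 at 24 h (0.67 ± 0.16, adjusted p = 0.0155), and Mybbp1a 12.93, 12.92 and 13.15 and then 13.39, 13.25 and 13.64 (0.43 ± 0.11, adjusted p = 0.0232). The groups were apart for both genes. Bysl, a small subunit maturation factor, and Nol6 rose by 0.38 ± 0.12 (adjusted p = 0.048) and 0.35 ± 0.11 (adjusted p = 0.044). The count of 8 became 4, 5 and 4 without β-catenin 0 h array A, β-catenin 0 h array B and β-catenin 24 h array C.

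**Figure D4:**
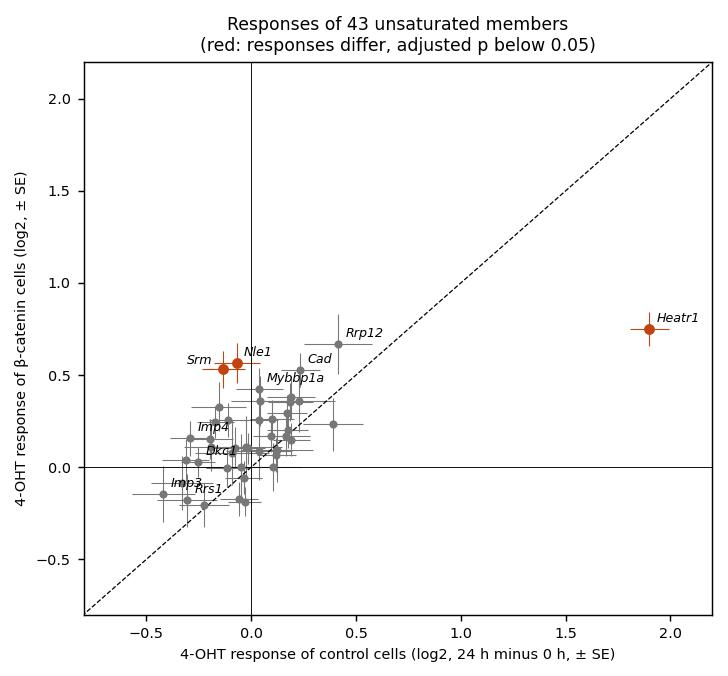
Log2 change over 24 h of 4-OHT in control cells (horizontal) and in β-catenin cells (vertical), each ± SE, for the 43 genes not saturated on every array; the dashed line marks equal responses and red points are the 3 genes whose responses differed at an adjusted p below 0.05. Srm and Nle1 lie above the line near 0 on the control axis, and Heatr1 lies far below it at 1.90 in control cells and 0.75 in β-catenin cells.

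The interaction test asked whether the 4-OHT response differed between the vectors, as β-catenin response minus control response. It called 2 of the 48 genes higher (3.74% of all genes) and 1 lower (3.43%), or 3 in either direction (7.17%), and the median of the 43 genes was 0.16, against 0.02 over all genes. The 432 genes at the scan ceiling on all arrays, whose true change is not seen, had a median of 0.19 in this contrast. Their median was 0.11 in the vector difference at 24 h, and 0 were called by limma in any of the 5 comparisons. The source of these offsets was not tested. Srm differed by 0.66 ± 0.14 (adjusted p = 0.016), being -0.13 ± 0.10 in control and 0.53 ± 0.10 in β-catenin cells. Nle1 differed by 0.63 ± 0.15 (adjusted p = 0.0284), being -0.07 ± 0.11 and 0.56 ± 0.11. Over the alternatives, the adjusted p ran from 0.00476 to 0.0526 for Srm and from 0.00608 to 0.078 for Nle1. The Srm call was lost with normexp and quantile normalisation and without β-catenin 0 h array B, and the Nle1 call without B or C of control 24 h, β-catenin 0 h or β-catenin 24 h. The count of 2 became 4 without control 24 h array A, 0 without β-catenin 0 h array B, and 1 without any of control 24 h arrays B and C, β-catenin 24 h arrays B and C and β-catenin 0 h array C.

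The 3 genes whose responses were closest were Gar1, Ddx10 and Tsr1. Gar1, a box H/ACA protein, read 13.62, 13.56 and 13.60 and then 13.89, 13.70 and 13.69 in control cells, and 13.79, 13.91 and 14.07 and then 14.19, 13.89 and 14.21 in β-catenin cells (interaction 0.00 ± 0.16). Ddx10, a helicase, read 11.51, 11.74 and 11.86 and then 11.60, 11.32 and 11.51 in control cells, and 11.78, 12.02 and 12.05 and then 11.83, 11.66 and 11.73 in β-catenin cells (0.02 ± 0.17). Tsr1, a GTPase-like factor of the small subunit, read 12.12, 12.13 and 12.16 and then 12.17, 12.05 and 12.08 in control cells, and 12.43, 12.47 and 12.47 and then 12.46, 12.23 and 12.50 in β-catenin cells (-0.02 ± 0.13). In Tsr1 every β-catenin array lay above every control array, before and after 4-OHT.

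Heatr1 was called in 4 of the 5 comparisons and was the gene called lower with β-catenin at 24 h. It encodes a large protein of the small subunit processome that is also needed for RNA polymerase I transcription. In control cells its signal was 13.07, 13.01 and 13.08 at 0 h and 14.84, 14.97 and 15.04 at 24 h, a 3.73-fold rise (1.90 ± 0.09, adjusted p = 2.85e-08). In β-catenin cells it was 13.36, 13.37 and 13.27 at 0 h and 13.94, 14.19 and 14.13 at 24 h, a 1.68-fold rise (0.75 ± 0.09, adjusted p = 0.000186). The 4 groups did not overlap on any array. The vector difference was 0.28 ± 0.09 at 0 h, which was not called (adjusted p = 0.0774), and -0.86 ± 0.09 at 24 h (adjusted p = 5.99e-05), and the interaction was -1.15 ± 0.13 (adjusted p = 0.000338). All Heatr1 calls held in every alternative; the uncalled difference at 0 h stayed uncalled in 19 of 24.

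The gene next to Heatr1 in the RefSeq annotation of GRCm38.p6 is Lgals8, which encodes the lectin galectin-8 and was looked up after the Heatr1 values were seen. Lgals8 rose by 1.25 ± 0.08 in control cells (adjusted p = 4.12e-07) and by 0.54 ± 0.08 in β-catenin cells (adjusted p = 0.000978), and its interaction was -0.71 ± 0.12 (adjusted p = 0.00356). Its vector difference was -0.41 ± 0.08 at 0 h (adjusted p = 0.00853) and -1.12 ± 0.08 at 24 h (adjusted p = 3.51e-06). The position of the Heatr1 probe is not given in the sources used here, and whether it reads RNA from the neighbouring gene was not tested. The Heatr1 promoter, from RefSeq at chr13:12395125-12395424 on the plus strand of GRCm38.p6, runs from 250 bases before the start of the gene to 50 after it. It holds the ETS-type motif CCGGAAG, set in capitals, and is shown because Heatr1 is the gene of the 48 that rose with 4-OHT with both vectors.
Heatr1: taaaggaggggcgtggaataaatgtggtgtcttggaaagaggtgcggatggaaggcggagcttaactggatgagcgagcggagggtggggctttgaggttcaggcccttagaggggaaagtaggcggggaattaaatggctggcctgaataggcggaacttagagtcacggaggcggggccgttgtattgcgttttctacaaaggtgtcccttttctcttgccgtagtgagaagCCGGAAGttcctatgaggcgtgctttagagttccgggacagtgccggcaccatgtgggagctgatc

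Promoters of 41 of the 48 genes were matched in RefSeq and searched on both strands. The E-box CACGTG was found in 8 of the 41 (19.5%), against 8.09% of the 27025 genes in the table. CCGGAAG was in 12 (29.3% against 9.93%), the PU.1-type GAGGAAGT in 4 (9.76% against 3.69%) and CCAAT in 16 (39% against 41.1%), and matches of CCGGAAG and GAGGAAGT were counted separately. The palindromic motifs of NRF1 and BANP were in 0 of the 41 windows (1.07% and 0.525% of all genes). A match is a stretch of letters and not a shown binding site. Of the 8 genes with CACGTG, 6 were called higher with β-catenin at 24 h: Grwd1, Imp4, Mybbp1a, Nle1, Tsr1 and Wdr43. Pes1 (0.26) and Utp18 (0.28) were not. The same count was 5 of 12 for CCGGAAG, 7 of 16 for CCAAT and 2 of 4 for GAGGAAGT, beside 56.2% of the 48 genes and 8.68% of all genes, and no test was made of these counts.

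The 30 bases around each E-box are shown with the motif in capitals, 5′ to 3′ on the strand of the gene, because this element is the one tied to Myc. The windows lie on GRCm38.p6 at chr1:34439696-34439725 (plus, Imp4), chr7:45830740-45830769 (minus, Grwd1), chr11:3963965-3963994 (plus, Pes1), chr11:72441347-72441376 (plus, Mybbp1a), chr11:74898092-74898121 (plus, Tsr1), chr11:82908355-82908384 (minus, Nle1), chr11:93885769-93885798 (minus, Utp18) and chr17:71616220-71616249 (plus, Wdr43). In Imp4 and Utp18 the motif lies before the start of the gene, and in the other 6 within the first 50 bases after it.
Imp4: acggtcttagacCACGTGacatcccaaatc
Grwd1: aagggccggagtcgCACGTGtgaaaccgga
Pes1: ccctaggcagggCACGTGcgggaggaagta
Mybbp1a: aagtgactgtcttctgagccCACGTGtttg
Tsr1: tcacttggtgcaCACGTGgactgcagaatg
Nle1: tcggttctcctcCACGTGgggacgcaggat
Utp18: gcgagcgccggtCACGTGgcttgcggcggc
Wdr43: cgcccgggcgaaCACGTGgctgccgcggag

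Nle1 is the E-box gene whose 4-OHT response differed between the vectors. Its whole promoter, chr11:82908346-82908645 on the minus strand, has the motif near its 3′ end.
Nle1: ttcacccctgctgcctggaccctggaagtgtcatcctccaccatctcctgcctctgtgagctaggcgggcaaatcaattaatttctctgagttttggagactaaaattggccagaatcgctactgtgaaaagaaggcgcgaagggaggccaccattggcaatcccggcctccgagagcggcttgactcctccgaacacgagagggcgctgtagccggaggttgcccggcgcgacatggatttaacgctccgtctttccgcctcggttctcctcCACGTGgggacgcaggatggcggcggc

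Myc itself was lower in control cells after 4-OHT. It read 15.60, 15.52 and 15.48 at 0 h and 14.88, 15.17 and 15.00 at 24 h, and fell by 0.51 ± 0.11 (adjusted p = 0.00544). In β-catenin cells it read 15.62, 15.50 and 15.49 at 0 h and 15.38, 15.76 and 15.55 at 24 h, and its change was 0.03 ± 0.11 (adjusted p = 0.898). The 3 control arrays at 24 h were lower than the other 9. The vector difference was 0.00 ± 0.11 at 0 h (adjusted p = 0.989) and 0.55 ± 0.11 at 24 h (1.46-fold, adjusted p = 0.00539), and the interaction of 0.54 ± 0.16 was not called (adjusted p = 0.0633, and 0.00766 to 0.138 over the alternatives, uncalled in 16 of 23). At 0 h 13 ribosome biogenesis genes were called higher with β-catenin and Myc was not called. The part of Myc in the differences of these genes was not tested at either time.

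Of 12 Myc network genes, 0 were called higher and 2 lower with β-catenin at 0 h, and 3 higher and 1 lower at 24 h. The shares of all genes were 4.38% higher and 6.62% lower at 0 h, and 8.68% and 9.88% at 24 h. Max, the partner of Myc, was not called in any comparison (-0.07 ± 0.10 at 0 h and -0.12 ± 0.10 at 24 h between vectors, 0.06 ± 0.10 and 0.02 ± 0.10 over 4-OHT in control and β-catenin cells, -0.05 ± 0.15 in the interaction). Mxd1, which competes with Myc for Max, read 12.57, 12.48 and 12.21 in control cells at 0 h and 11.25, 11.01 and 10.98 in β-catenin cells. The groups were apart, with a difference of -1.34 ± 0.14 (adjusted p = 7.87e-05). At 24 h Mxd1 read 10.77, 11.13 and 11.03 against 10.34, 10.77 and 10.54 and was not called (-0.43 ± 0.14, adjusted p = 0.0597). It fell by 1.44 ± 0.14 with 4-OHT in control cells (adjusted p = 1.18e-05) and by 0.53 ± 0.14 in β-catenin cells (adjusted p = 0.0284), and these responses differed (0.91 ± 0.20, adjusted p = 0.0176). Its relative Mxi1 read -0.56 ± 0.09 at 0 h and 0.30 ± 0.09 at 24 h, and Mxd3 read -0.70 ± 0.09 at 24 h, all called. Mlx, a partner of the Mxd proteins, was higher at 24 h by 0.44 ± 0.10.

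With β-catenin, 4.38% of all genes were called higher and 6.62% lower at 0 h, and 8.68% and 9.88% at 24 h. Other ribosome biogenesis factors were listed beside the 48 genes. Of 96 tested, 37 were called higher, 0 lower and 59 not called with β-catenin at 24 h. By limma, 57 had an unadjusted p under 0.05, beside 6873 of the 22461 genes tested. Of the 96, 85 were above 0, beside 12084 of the genes tested, and the median log2 difference was 0.27. The largest were Ruvbl2, an ATPase of box C/D particle assembly, at 0.72 ± 0.15 and Nop16 (listed as D13Wsu177e), a large subunit factor, at 0.67 ± 0.10. At 0 h 14 were higher and 3 lower, with a median of 0.22, and the largest were Ltv1 (0.63 ± 0.13) and Sbds (0.60 ± 0.11), factors of late subunit maturation. Of the 15 other RNA polymerase I subunits and factors, 3 were higher and 1 lower at 24 h. Rrn3, which brings the polymerase to the promoter, was higher by 0.65 ± 0.11 and Tcof1 (treacle) by 0.50 ± 0.13, while the terminator factor Ttf1 read -0.45 ± 0.11. Of 14 genes of the exosome, which trims ribosomal RNA ends, and of related nucleases, 2 were higher at 0 h and 4 at 24 h, with 0 lower at either time; Xrn2, a nuclease of the same maturation steps, and Dis3 were called at both times (0.53 ± 0.08 each at 0 h, then 0.34 ± 0.08 and 0.30 ± 0.08).

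Over 4-OHT, these wider lists were mixed. Of the 96 other biogenesis factors, 5 rose and 5 fell in control cells, where 11.9% and 10.8% of all genes did. In β-catenin cells 12 rose and 4 fell, where 8.02% and 6.32% of all genes did. Utp25 (listed as AA408296), a processome factor, rose in both (0.50 ± 0.10 and 0.56 ± 0.10). The interaction called 2 of the 96, both higher, where 3.74% of all genes were called higher and 3.43% lower. Shq1, an assembly chaperone of box H/ACA particles, read 10.37, 10.13 and 10.19 and then 10.08, 9.97 and 9.89 in control cells, and 9.66, 9.64 and 9.46 and then 10.52, 10.28 and 10.46 in β-catenin cells. It was lower with β-catenin at 0 h (-0.64 ± 0.11, adjusted p = 0.00191) and higher at 24 h (0.44 ± 0.11, adjusted p = 0.0128), with an interaction of 1.08 ± 0.15 (adjusted p = 0.00115). The helicase gene Ddx56 had an interaction of 0.40 ± 0.11 (adjusted p = 0.049).

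Ribosomal protein genes gave almost no measurement. Of 78 tested, 69 were at the scan ceiling on all arrays and 5 on none, and 0 were called in any comparison by limma (1 had an unadjusted p under 0.05 at 0 h and 1 at 24 h between the vectors). Among 22 genes of polyamine and nucleotide synthesis outside the 48, 6 were higher and 1 lower with β-catenin at 0 h, and 10 were higher and 0 lower at 24 h. The shares of all genes were 4.38% and 6.62% at 0 h, and 8.68% and 9.88% at 24 h. At 24 h, 16 of the 22 had an unadjusted p under 0.05 by limma, beside 6873 of the 22461 genes tested. Gart and Gmps of purine synthesis were higher at 24 h by 0.53 ± 0.12 and 0.49 ± 0.10. Amd1, which supplies the donor group for Srm, and the nucleoside diphosphate kinase Nme1 were higher at 0 h by 0.68 ± 0.10 and 0.60 ± 0.10. Sat1, which acetylates spermidine for breakdown or export, read -0.72 ± 0.10 at 0 h (adjusted p = 0.000495).

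Translation factors and cell cycle genes were limited by the scan ceiling, which 8 of 25 translation factors reached on all arrays and 4 on some, and 3 and 7 of 26 proliferation genes. Beside the counts below, 4.38% of all genes were called higher and 6.62% lower with β-catenin at 0 h, and 8.68% and 9.88% at 24 h. Of the 25 translation factors, 1 was higher and 2 lower with β-catenin at 0 h, and 3 were higher and 1 lower at 24 h. At 24 h 23 of 25 were above 0, beside 12084 of the 22461 genes tested. The 432 genes at the scan ceiling on all arrays read 0.04 to 0.15 in that comparison. Of the translation factors, Eef1e1 was higher by 0.60 ± 0.14 at 24 h, and Eif5b read -0.32 ± 0.08. Of the 26 proliferation genes, 1 was higher and 0 lower at 0 h, and 1 was higher and 3 lower at 24 h. Mki67, the gene of the Ki-67 antigen, read -0.69 ± 0.09 and cyclin gene Ccne2 -0.46 ± 0.08, while Rrm2 was higher by 0.32 ± 0.09. No test compared these lists with the ribosome biogenesis genes. Of 11 p53 pathway genes, 0 were higher and 3 lower at 0 h, with Cdkn1a at -0.67 ± 0.09 and Sesn2 at -0.52 ± 0.11, and 3 were higher and 0 lower at 24 h, with Gadd45a at 0.88 ± 0.12 and Zmat3 at 0.56 ± 0.13.

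**Figure D5:**
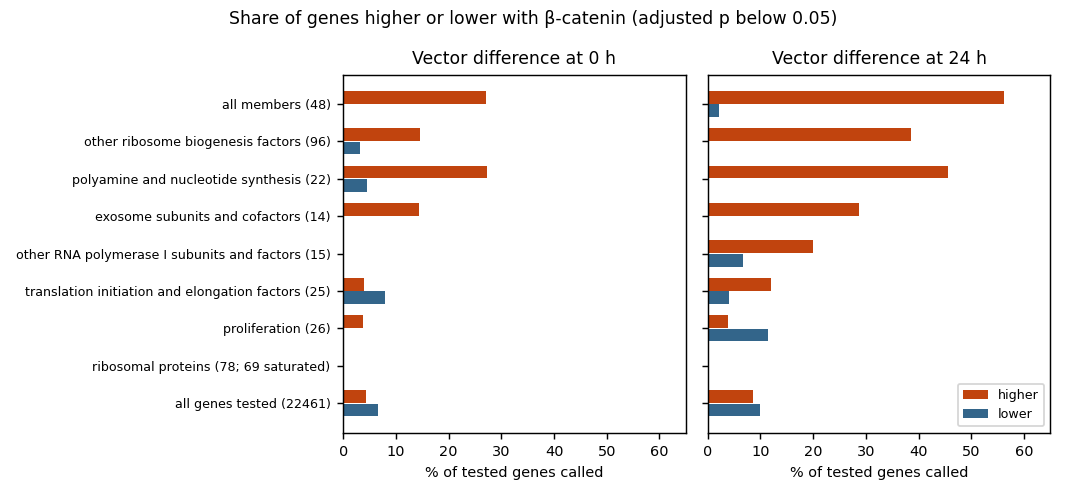
Percentage of tested genes called higher (orange) or lower (blue) in β-catenin than in control cells at 0 h (left) and 24 h (right), for the 48 genes ("all members"), for the wider lists and for all 22461 genes tested, with the number tested in parentheses. At 24 h the 48 genes have 56.2% higher and 2.08% lower, the other ribosome biogenesis factors 38.5% and 0%, and all genes 8.68% and 9.88%.

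Markers of other myeloid cells moved with the vectors and with 4-OHT. Between the vectors, 4.38% of all genes were called higher with β-catenin and 6.62% lower at 0 h, and 8.68% and 9.88% at 24 h. Eosinophil markers were higher with β-catenin in 5 of 7 tested at both times, and the log2 of their summed signal was 9.52 to 10.30 in control cells at 0 h, 10.42 to 11.78 at 24 h, 16.18 to 16.58 in β-catenin cells at 0 h and 16.17 to 16.52 at 24 h. Of 8 on the arrays, the receptor genes Il5ra, Siglecf and Ccr3 lay below the background bound on every array. Mast cell and basophil markers were higher in 6 of 10 at 0 h and in 4 (1 lower) at 24 h, with sums of 13.24 to 13.34, 12.02 to 12.14, 13.96 to 14.11 and 13.17 to 13.21 in the same order of groups, and Fcer1a and Tpsb2 below the bound throughout. Erythroid and megakaryocyte markers were higher in 3 of 8 and 4 of 8, with sums of 10.77 to 10.83, 10.51 to 10.68, 11.40 to 11.47 and 10.98 to 11.15 and with Alas2, Pf4 and Gp9 among those below the bound. Macrophage markers were lower with β-catenin in 5 of 10 at 0 h and 7 of 10 at 24 h, with sums of 14.17 to 14.57, 16.65 to 16.87, 13.53 to 13.85 and 15.90 to 16.06 and none below the bound on every array. Their part in the results for the ribosome biogenesis genes was not tested.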

How the data were processed

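Cy3-labelled RNA of 12 samples was hybridised to Agilent 4×44K mouse arrays, 1 per sample. Of the 2 deposited tables, 1 holds the intensity of 43379 spots (41174 probes) as scanned, from 41 to 65535, which is the ceiling. The other, used for all main results, gives 1 probe for each of 27676 gene names as log2 values that the authors deposited as normalised. The submitters' processing notes name limma; its version, the normalisation method, the rule that picked a probe, probe positions, slides and scan dates are not given in the sources used here. All value columns were used (0 left over), and the deposited value table of the series holds the same numbers (largest difference 0).

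Names were matched to current mouse symbols: 14728 directly, 4294 through a synonym and 8654 kept as listed. A gene was tested if 3 or more arrays had it no lower than their 30th percentile (22461 genes). A limma model (version 3.58.1, R 4.3.3) with 4 group means used the 12 arrays together (8 residual degrees of freedom, prior 3.68). Its moderated tests were two-sided, and p-values were adjusted within each comparison by Benjamini-Hochberg. The background bound was the mode of an array plus 3 SD of the values below it (7.23 to 7.55). Precision is limited by the number of arrays, with a median SE of 0.111 over the 48 genes and 0.157 in the interaction. The test was also tried on simulated data, with a spread drawn from the fit of the real data. It recovered 8 of 50 genes with a true log2 change of 0.5, 44 of 50 at 1, 49 of 50 at 2 and 50 of 50 at 4. There were 13 false calls, so small changes can go uncalled.

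The 48 genes, the other lists and the alternatives were chosen with earlier results of these data known. Values on every array are given for the 6 called genes of largest change in each direction of a comparison and for the 3 of smallest interaction. Of other lists, Myc, Max and Mxd1 and up to 2 called genes per direction are named; Xrn2, Dis3, Lgals8 and further genes named beside them were chosen after their values were seen. Both vector differences share arrays with both responses, so those comparisons are not independent of each other. The alternatives were normexp (offset 50) with quantile normalisation of the scanned intensities, 75th percentile scaling, median centring, filtering off, set to the 50th percentile or set to the background bound, omission of genes at the ceiling, a replicate block on the letter, array weights, a trend and robust prior, array brightness as a covariate, only the 2 groups compared, and each array left out in turn. Whether the letters pair the arrays is not stated in the labels, and the main model did not pair them. Of the marker genes, 1 is not reported here by name; it remains in the counts. Promoter sequences, from 250 bases before to 50 after a gene's start, are from RefSeq, build GRCm38.p6; 7 of the 48 genes had no match there.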

Additional observations from a re-analysis of the deposited data

Results flagged for a closer look

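The 4-OHT response differed between the vectors, by the interaction test of limma's fit (β-catenin response minus control response, log2, adjusted p below 0.05), for 3 of the 48 genes. Over all genes tested, 7.17% were called in either direction. The 3 genes were Heatr1 (-1.15, from 1.90 in control cells to 0.75 in β-catenin cells), Nle1 (0.63, from -0.07 to 0.56) and Srm (0.66, from -0.13 to 0.53). Of these calls, only that of Heatr1 held in every alternative. The gene beside Heatr1, Lgals8, differed by -0.71.

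Among listed genes outside the 48, the biogenesis factors Shq1 (1.08) and Ddx56 (0.40) differed, as did 3 Myc network genes: Mxd1 at 0.91 (from -1.44 in control cells to -0.53 in β-catenin cells), Mxi1 at 0.86 (from -0.92 to -0.06) and Mxd3 at -0.65 (from 0.78 to 0.13). Of polyamine genes, Sat1 differed by 0.69 and Azin1, an inhibitor of the protein that degrades ornithine decarboxylase, by -0.72. Of translation genes, Eif4ebp1, an inhibitor of cap-dependent initiation with 1 array at the scan ceiling, differed by 0.81, Eif4b by 0.54 and Eif5b by -0.43. Of p53 pathway genes, Gadd45a differed by 1.06 and Sesn2 by 0.77, and of proliferation genes Mki67, with 1 array at the ceiling, and Ccne2 differed by -0.50 each. For Ccne2 the log2 change was -0.01 in control cells and -0.51 in β-catenin cells.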

How the results depend on the processing

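With β-catenin at 24 h, 27 genes called higher became 18 to 31 with an array left out and 1 called lower stayed at 1; no other alternative moved these counts by over 1.5 times. With normexp and quantile normalisation, 75th percentile scaling or median centring, 30, 32 or 34 genes were called higher. The share of all genes called higher rose too, from 8.68% to 11.7%, 10.9% and 13.6% in the same order. With the 50th percentile or the background bound filter, 34 genes were called higher, where 17.2% or 17.4% of all genes tested were. At 0 h the 13 called became 3 to 18 with an array left out, 20 with normexp and quantile normalisation, 22 with the 50th percentile filter, 22 with the background bound filter, 24 with array weights and 21 with the trend and robust prior. The share of all genes called higher at 0 h was 4.38% in the main fit. With all arrays kept it was 7.02%, 9.72%, 9.86%, 8.94% and 5.83% in these alternatives, in the same order. In the β-catenin response the 8 called higher became 4 to 10 with an array left out, 14 with array weights and 5 with only the 2 groups, and the 0 called lower became 2 with normexp and quantile normalisation and 1 with array weights. In the control response the 1 called higher became 1 to 2 with an array left out, 3 with the 50th percentile filter, the background bound filter or the trend and robust prior, and 2 with array weights. The 2 called lower became 0 to 3 with an array left out, 7 with normexp and quantile normalisation, 6 with array weights, 4 with 75th percentile scaling, the 50th percentile filter, the background bound filter or the trend and robust prior, and 0 with no filter or only the 2 groups. In the interaction the 2 called higher became 0 to 4 with an array left out, 4 with either stricter filter and 5 with array weights. Whether the letters A, B and C pair the arrays is not stated in the labels. Deviations of same-letter arrays correlated at -0.17 to 0.20 and those of different-letter arrays at -0.20 to 0.22. Of the 12 arrays, 0 correlated best with its own letter in every group. Between control and β-catenin arrays at 24 h, however, same-letter pairs read 0.19 (A), 0.19 (B) and 0.15 (C), and different-letter pairs read -0.20 to 0.00. With the replicate block, 27 genes were called higher at 24 h, 10 at 0 h, 6 in the β-catenin response and 0 lower in the control response. Over all genes, calls were 5096 in the control response (4223 to 5213 with an array left out), 3220 in the β-catenin response (2160 to 3758; 5060 with array weights), 2469 at 0 h (1529 to 2907; 4350 with array weights), 4169 at 24 h (2780 to 4823; 2551 with only the 2 groups) and 1610 in the interaction (1078 to 2104; 2810 with array weights). Median centring moved the median of all genes at 24 h to 0.13 and the share of higher calls from 46.8% to 66.9%; 75th percentile scaling moved the median of the control response to -0.11 and that share from 52.5% to 39.8%. The median of the 43 genes ran from 0.42 to 0.56 at 24 h, 0.28 to 0.37 at 0 h, 0.09 to 0.19 and -0.07 to 0.02 in the β-catenin and control responses, and 0.10 to 0.22 in the interaction. Over 167 calls of named genes, 3532 alternative values kept the call, 447 lost it and 0 reversed. Fewer genes were adjusted over under the stricter filters and fewer arrays fitted in the 2-group fit; causes of the other shifts were not tested. Signal at the scan ceiling leaves 5 of the 48 genes without a measurable change.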
